A study of Mus musculus with 2 samples.

Results

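The histone genes of the mouse hippocampus were examined here as the genes with a protein-coding transcript whose symbol starts with Hist1h, Hist2h, Hist3h or Hist4h, or is H2afz, H2afv, H2afx, H2afy, H2afy2, H3f3a, H3f3b, H1f0 or H1fx. The choice used gene symbols and annotation only, not measured values. It gave 76 genes of the 55536 annotated genes in the deposited gene tables, or of the 21901 that have a protein-coding transcript. Of the 76, 67 are replication-dependent genes and 9 are variant genes. The RNA came from tissue labelled as a layer of hippocampus, taken from 2 males aged 8 to 10 months with no treatment named. The strain was B6CASTF1/J, a hybrid in which every cell carries 1 C57BL/6J and 1 CAST/EiJ genome, and reads of both were counted on 1 reference. Replicate 1 was animal 2 and replicate 2 was animal 4, with 1 library of 300 ng total RNA each, reduced for ribosomal RNA and stranded. Both tissue samples carry 1 donor entry in the labels, so the spread between them may be partly technical. Both libraries form 1 group, and no condition was compared.

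Histones package nuclear DNA: H2A, H2B, H3 and H4 form the core particle, and the linker histone H1 binds where DNA enters and leaves it. Replication-dependent histone genes lie in clusters, mostly have no introns and supply new histone during S phase, and their mRNAs end in a conserved stem-loop in place of a poly(A) tail. Variant genes lie outside the clusters, mostly have introns and polyadenylated mRNAs, and are used throughout the cell cycle, so neurons, which do not divide, are known to build up variants such as H3.3 and H1.0. Total RNA libraries do not select for poly(A) tails, so both kinds of mRNA can be read from them. In bulk RNA, more cells with a transcript and more transcript per cell cannot be told apart.

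The stem-loop was read from the annotated transcripts as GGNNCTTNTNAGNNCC on the sense strand. It was present in 46 of the 67 replication-dependent genes (68.7%), against 0.408% of the 21825 other protein-coding genes on the sense strand and 0.380% of them on the antisense strand. No annotated transcript of the 76 genes held it on the antisense strand. By class it was found in 12 of 13 H4 genes, 9 of 12 H3 genes, 4 of 6 H1 genes, 11 of 18 H2A genes and 10 of 18 H2B genes. The sites below, with 3 to 5 flanking bases on each side and the stem-loop in capitals, show at least 1 gene of each class and the variant exception. They are on mm10 and are written 5′ to 3′ on the gene's strand.
Hist1h4h (H4, chr13:23531453-23531478, plus strand): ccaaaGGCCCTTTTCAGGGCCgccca
Hist1h4m (H4, chr13:21812124-21812147, plus strand): ctaaaGGCCCTTTTCAGGGCCatc
Hist1h2bg (H2B, chr13:23571838-23571863, plus strand): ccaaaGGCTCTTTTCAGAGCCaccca
Hist2h2aa1 (H2A, chr3:96246027-96246052, plus strand): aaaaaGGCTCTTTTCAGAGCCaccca
Hist1h3e (H3, chr13:23561898-23561923, minus strand): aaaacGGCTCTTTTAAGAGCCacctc
Hist1h1c (H1, chr13:23739507-23739532, plus strand): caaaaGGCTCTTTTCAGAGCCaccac
H2afx (H2A.X, chr9:44335235-44335260, plus strand): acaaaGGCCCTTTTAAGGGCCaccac
In the sites printed, the letters of the stem change in step on both sides, so that each can pair. Of the 46 replication-dependent genes, 26 carried the form seen in Hist1h2bg, Hist2h2aa1 and Hist1h1c, 7 that of Hist1h4h and 6 that of Hist1h3e. H2afx encodes H2A.X, the variant phosphorylated at DNA breaks, and was the only 1 of the 9 variant genes with a match.

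The annotated 3′ ends differed among these genes. The last stem-loop lay within 30 bases of a transcript's end in 9 of the 46 genes, and the annotation ran over 300 bases past it in 18. The 21 replication-dependent genes without a match had a median longest transcript of 405 bases, against 619 bases in the 46 with one, and 13 of the 21 had a longest transcript under 420 bases, so that a site past the annotated end would not be seen. The median level was 7.72 TPM (an abundance per transcript length, scaled to the same total in each library) over the 46 genes and 8.21 TPM over the 21, with 38 of 46 and 15 of 21 detected, that is at 1 TPM or more in both libraries. Within H4 the median was 31.0 TPM for the 12 genes with the motif and 119 TPM for the 1 without it, Hist1h4k. With and without the motif, the medians were 2.80 and 22.1 TPM in H3 and 6.14 and 13.2 TPM in H2B. They were close in H2A, at 3.44 and 4.04 TPM, and went in the other direction in H1, at 12.1 and 5.27 TPM. These medians are descriptions, with 1 to 12 genes behind each. TPM divides by length, and how far annotated length sets these medians was not tested. Hist1h4k has 312 annotated bases, and Hist1h4d, which carries the motif, has 1138. In expected counts Hist1h4k had 335 in replicate 1 and 508 in replicate 2, below Hist1h4d at 767 and 1083.

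The 76 genes together held 1775 TPM in replicate 1 and 1779 TPM in replicate 2. They took 17988 expected counts in replicate 1, 0.0768% of annotated counts (95% Wilson interval 0.0757 to 0.0780%), and 25276 in replicate 2, 0.0856% (0.0846 to 0.0867%). In all, 62 of the 76 genes were detected in both libraries, namely 53 of 67 replication-dependent genes and all 9 variant genes. The share of all genes at this level is not given here. These counts, and those of the gene lists below, are therefore descriptions and do not say whether detection was high or low. The replication-dependent genes summed to 1267 ± 10.6 TPM (SD, n = 2) and the variants to 509 ± 13.9 TPM. The variant share of histone TPM was 28.2% in replicate 1 and 29.2% in replicate 2, a mean of 28.7% ± 0.729 (SD, n = 2).

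**Figure D1:**
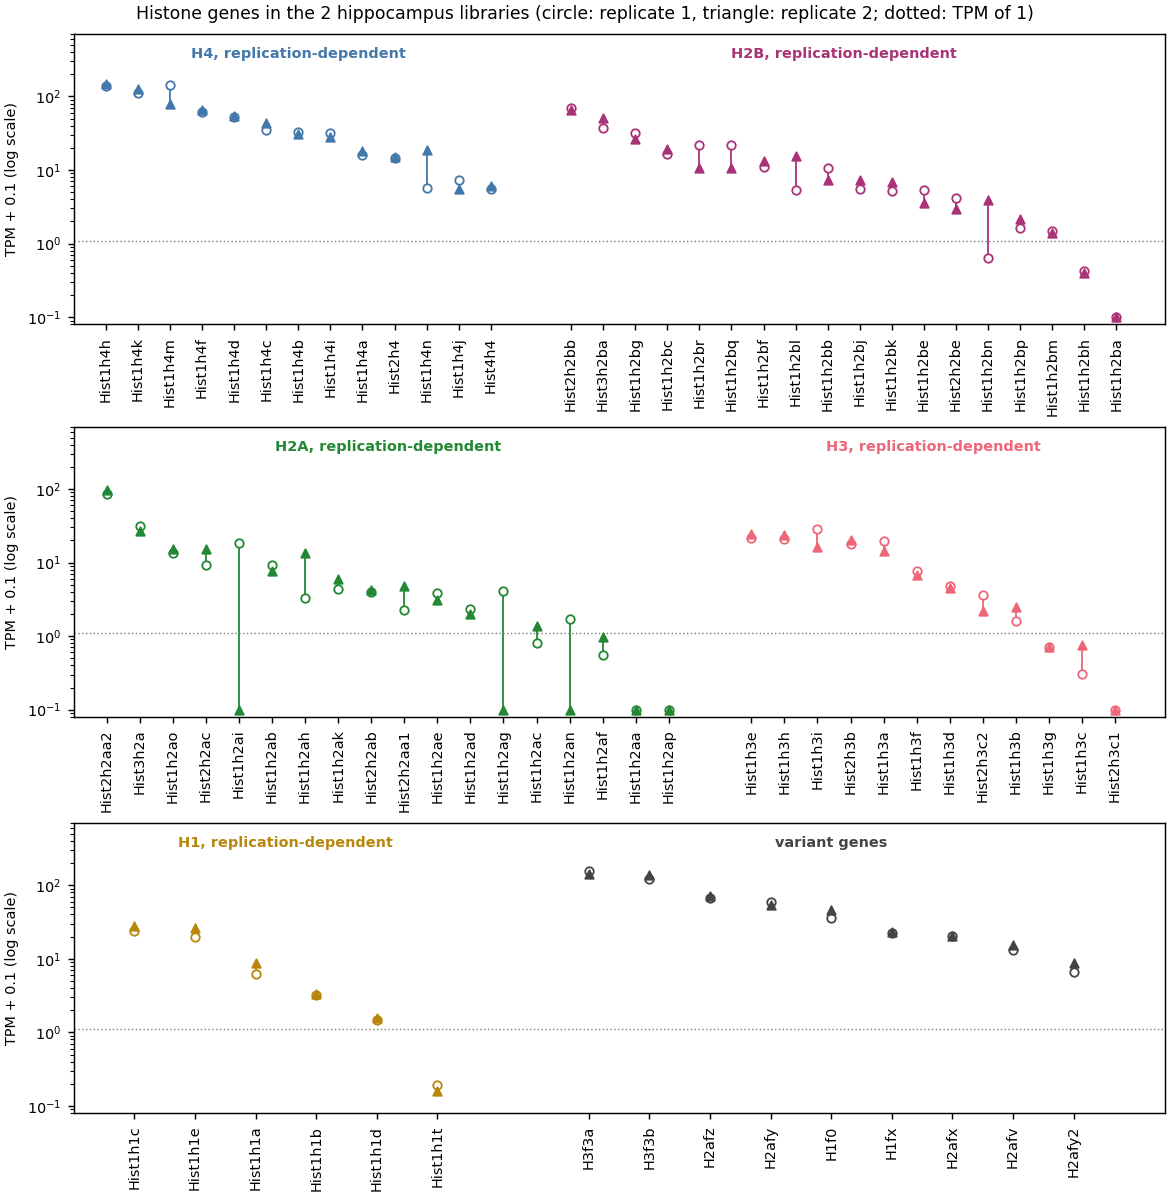
TPM of each of the 76 histone genes (y axis, TPM + 0.1 on a log scale), grouped by class on the x axis and ordered by mean, with a circle for replicate 1, a triangle for replicate 2 and a dotted line at 1 TPM. All 13 H4 genes and all 9 variants sit above the line in both libraries, while 7 of 18 H2A genes fall below it in at least 1 library.

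H4 was the most abundant class. H4 is encoded by many gene copies, and no H4 variant gene is among the 76. The 13 H4 genes summed to 655 TPM in replicate 1 and 636 TPM in replicate 2, or 50.9% ± 0.618 of the replication-dependent TPM (SD, n = 2). All 13 were detected, and 11 of them had a mean of 10 TPM or more.

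A few H4 genes of the Hist1 cluster stood at over 100 TPM on average. Hist1h4h (ENSMUSG00000060981.7, chr13:23531050-23531519) had 138 TPM in replicate 1 and 146 TPM in replicate 2. Hist1h4k had 112 and 126 TPM, but only 35.8% of its 101-base windows occur in no other gene, and 64.2% occur in Hist1h4a. Hist1h4m had 143 and 79.5 TPM, the widest spread of any histone gene in TPM, and its libraries differed where those of the other pair lay close together. Hist1h4m and Hist1h4n share sequence: 88.1% of the 101-base windows of Hist1h4m and 80.6% of those of Hist1h4n occur in the other gene. Hist1h4n went the other way, with 5.59 and 18.7 TPM, and the sum of both genes was 149 and 98.2 TPM. The shared windows do not say which gene a read came from, so the split between these genes is uncertain.

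The other H4 genes formed a graded series with closer libraries. Hist1h4f had 60.7 and 65.1 TPM, and Hist1h4d, whose windows occur in no other gene, had 52.4 and 54.8 TPM. Hist1h4c stood at 39.0 ± 5.35 TPM (SD, n = 2), Hist1h4b at 31.9 ± 1.45 and Hist1h4a at 16.9 ± 1.68 TPM, and Hist1h4i had 31.7 and 28.3 TPM. Outside the Hist1 cluster, Hist2h4 was at 14.4 and 14.7 TPM and Hist4h4, the single member of its cluster, at 5.49 and 5.96 TPM. Hist1h4j was at 7.12 and 5.44 TPM, so the lowest H4 gene differed between the libraries, and by the second quantifier it was Hist1h4n at 2.04 TPM on average.

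Some H4 genes with mostly unique windows also moved between the quantifiers, in counts as well as in TPM. Hist1h4d averaged 925 counts and 53.6 TPM by the first and 545 counts and 27.9 TPM by the second. Hist1h4f averaged 305 and 78.1 counts, with 62.9 and 24.2 TPM. Hist1h4i averaged 309 and 142 counts, with 13.5 TPM by the second. Hist1h4h went up, to 222 and 241 TPM in the 2 libraries by the second quantifier. What moved the counts was not tested.

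H3 showed the reverse balance, with the variant above the replication-dependent genes. H3f3a and H3f3b both encode H3.3, which is placed into chromatin outside replication. H3f3a (ENSMUSG00000060743.12, chr1:180800832-180813943) had 155 TPM in replicate 1 and 143 TPM in replicate 2, and H3f3b (ENSMUSG00000016559.14, chr11:116021912-116027962) had 119 and 137 TPM. The order of this pair held in both libraries, but the deposited bounds, credible limits of TPM within 1 library, were apart in replicate 1 and overlapped in replicate 2. H3.3 genes held 68.6% of all H3 TPM in replicate 1 and 70.8% in replicate 2, a mean of 69.7% ± 1.53 (SD, n = 2).

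That share depended on which transcripts of H3f3b are counted. Only 42.9% of H3f3b TPM was on transcripts annotated as protein-coding, 49.6 TPM in replicate 1 and 60.4 TPM in replicate 2, while 98.7% of H3f3a TPM was. The noncoding H3f3b-204 held 59.03 and 68.66 TPM. With protein-coding transcripts alone, a setting added after the data were seen, the H3.3 share was 62.7% ± 1.28 (SD, n = 2). The quantifiers also divided the coding part of H3f3b differently: the first gave H3f3b-201 54.5 ± 7.55 TPM and H3f3b-202 0.540 ± 0.141 TPM, whereas the second gave 9.61 and 39.2 TPM.

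The 12 replication-dependent H3 genes, which encode H3.1 and H3.2, summed to 126 and 116 TPM, with 9 detected. Hist1h3e had 21.3 and 24.6 TPM, Hist1h3h 21.1 and 23.9 TPM, and Hist1h3i 28.1 and 16.1 TPM. Hist2h3b stood at 18.8 ± 1.81 TPM (SD, n = 2), Hist1h3a at 16.8 ± 3.97, Hist1h3f at 7.12 ± 0.601 and Hist1h3d at 4.60 ± 0.184 TPM. The leading H3 genes could not be ordered, since the spread of Hist1h3i covered its neighbours and the quantifiers differed. By the second quantifier Hist1h3b averaged 22.4 TPM, above Hist1h3i at 15.3, Hist1h3e at 14.2 and Hist1h3h at 10.5 TPM. Only 8.04% of the windows of Hist1h3h and 31.8% of those of Hist1h3i occur in no other gene. Hist2h3c2 was at 2.80 ± 0.983 TPM and Hist1h3b at 1.97 ± 0.629 TPM, and Hist1h3g and Hist1h3c stayed below 1 TPM. Hist2h3c1 was listed at 0 in both libraries and has no window of its own, since all of its windows occur in the overlapping gene Gm20634.

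H2A split almost evenly between replication-dependent genes, at 192 and 195 TPM, and variants, at 166 and 171 TPM. H2A.Z, which marks promoters and is encoded by H2afz and H2afv, held 23.2% ± 0.927 of H2A TPM (SD, n = 2). H2afz (chr3:137864487-137866922) had 67.7 TPM in replicate 1 and 72.3 TPM in replicate 2, and H2afv had 13.0 and 15.1 TPM, so H2afz made up 83.3% ± 0.855 of the H2A.Z TPM. The macroH2A genes, whose proteins carry a large extra domain and are best known from silenced chromatin, were unequal: H2afy had 58.6 and 54.4 TPM and H2afy2 6.60 and 8.56 TPM. H2afx had 20.1 and 20.6 TPM, or 5.62% ± 0.00913 of H2A TPM.

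Of the 56.5 ± 2.97 TPM of H2afy (SD, n = 2), 28.2 ± 3.42 TPM was on protein-coding transcripts. H2afy-201 had 17.9 and 21.2 TPM and H2afy-202 had 7.91 and 9.50 TPM, and the rest lay on transcripts annotated as retained introns or processed transcripts. H2afz was 94.0% coding. Among the 9 variants, the deposited bounds of neighbours in the order of levels were apart in both libraries for 5 of 8 neighbouring pairs. The pairs not separated were H3f3a and H3f3b, H2afz and H2afy, and H1fx and H2afx.

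Most of the replication-dependent H2A signal came from few genes. Hist2h2aa2 had 84.5 TPM in replicate 1 and 96.0 TPM in replicate 2, 46.6% of the class, and all of its windows also occur in Gm20634, a processed transcript that had 5.60 and 2.60 TPM. Its inverted neighbour Hist2h2aa1, which overlaps Gm20634 and shares 88.3% of its windows with it, had 2.15 and 4.73 TPM, and the second quantifier split this pair almost evenly, at 45.1 ± 3.96 TPM for Hist2h2aa1 and 55.3 TPM for Hist2h2aa2. The sum of both was 86.7 and 101 TPM by the first quantifier and 92.4 and 108 TPM by the second. The sums were closer than the splits. Hist3h2a had 31.2 and 26.4 TPM, though 29.8% of its windows are shared with Trim17, which starts at the same base.

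The 13 H2A genes of the Hist1 cluster summed to 60.9 and 49.0 TPM, with 6 detected. Hist1h2ao stood at 14.4 ± 1.37 TPM (SD, n = 2), Hist1h2ab at 8.33 ± 1.15, Hist1h2ah at 8.21 ± 7.09 and Hist1h2ak at 5.07 ± 1.12 TPM. Hist1h2ae was at 3.38 ± 0.594 and Hist1h2ad at 2.06 ± 0.247 TPM. Hist1h2ai had 18.0 TPM in replicate 1 and was listed at 0 in replicate 2, and Hist1h2ag had 4.05 TPM and 0 likewise. In the Hist2 cluster, Hist2h2ac had 9.19 and 15.2 TPM and Hist2h2ab 3.92 and 4.15 TPM. Hist1h2ac, Hist1h2an and Hist1h2af averaged below 1 TPM. Hist1h2aa, a testis gene, and Hist1h2ap were listed at 0 in both libraries.

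H2B has no variant gene among the 76, and its 18 genes summed to 248 and 246 TPM, with 15 detected. The leading genes lie outside the Hist1 cluster. Hist2h2bb had 69.5 and 64.7 TPM, but 45.2% of its windows are also in Gm42743, which overlaps it. Hist3h2ba had 36.9 and 50.9 TPM, and 95.5% of its windows are its own. In the Hist1 cluster, Hist1h2bg had 31.6 and 26.6 TPM and Hist1h2bc 16.4 and 19.0 TPM.

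Hist1h2bq and Hist1h2br had nearly equal values, 21.7 and 10.4 TPM against 21.7 and 10.6 TPM, because Hist1h2bq-201 and Hist1h2br-202 are 1 identical sequence of 381 bases. The lower level of the pair in replicate 2 did not hold by the second quantifier: its sum was 43.4 and 21.1 TPM by the first and 25.8 and 30.03 TPM by the second. Hist1h2bf had 10.96 and 13.01 TPM. Hist1h2bl stood at 10.4 ± 7.13 TPM (SD, n = 2), Hist1h2bb at 8.89 ± 2.52, Hist1h2bj at 6.32 ± 1.38 and Hist1h2bk at 5.96 ± 1.18 TPM. Hist1h2be was at 4.42 ± 1.29 TPM, of which 61.3% was on its protein-coding transcripts. That coding part lay on Hist1h2be-201 in replicate 1 (2.92 TPM, against 0 on Hist1h2be-202) and mostly on Hist1h2be-202 in replicate 2 (2.08 TPM, against 0.420 on Hist1h2be-201). Hist2h2be, an H2B described in mouse olfactory neurons, had 4.00 and 2.84 TPM with all windows its own. Hist1h2bn was at 2.15 ± 2.28, Hist1h2bp at 1.81 ± 0.382 and Hist1h2bm at 1.34 ± 0.0495 TPM. Hist1h2bh stayed below 1 TPM, and Hist1h2ba, the testis H2B, was listed at 0 in both libraries.

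The linker histones were the lowest class, and here the variants and the cluster genes were about level, at 63.7 ± 6.89 and 60.7 ± 9.16 TPM (SD, n = 2). H1f0, which encodes H1.0 and is known for high levels in differentiated cells, had 36.2 TPM in replicate 1 and 45.3 TPM in replicate 2, 32.7% ± 0.976 of H1 TPM. H1fx had 22.6 and 23.2 TPM. Hist1h1c had 24.04 and 27.68 TPM and Hist1h1e 19.5 and 26.2 TPM, above Hist1h1a at 6.20 and 8.53, Hist1h1b at 3.09 and 3.27 and Hist1h1d at 1.38 and 1.49 TPM. The order of the last 3 depended on annotated length. In expected counts Hist1h1d had 143 and 208, against 56 and 104 for Hist1h1a and 28 and 40 for Hist1h1b. The longest transcript of Hist1h1d has 7425 bases, and those of Hist1h1a and Hist1h1b have 741 and 743. Hist1h1t, the testis H1, had 0.0900 and 0.0600 TPM, from 1 expected count on average. The H1 genes are the easiest to separate, since 75.5% to 100% of their windows occur in no other gene.

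By cluster, the 54 Hist1 genes on chromosome 13 summed to 972 ± 28.7 TPM, or 76.7% ± 1.62 of replication-dependent TPM (SD, n = 2). The 10 Hist2 genes on chromosome 3 summed to 217 ± 11.2 TPM, the 2 Hist3 genes on chromosome 11 to 72.7 ± 6.46 TPM and Hist4h4 on chromosome 6 to 5.73 ± 0.332 TPM. The 5 highest replication-dependent genes held 41.8% of the replication-dependent TPM. Across all 62 detected genes in order of mean level, neighbours were never separated: the deposited bounds were apart in both libraries for 0 of 61 neighbouring pairs, and the order was the same in both libraries for 21 of 61. For 8 genes the deposited TPM lay outside its own bounds in 1 or both libraries.

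**Figure D2:**
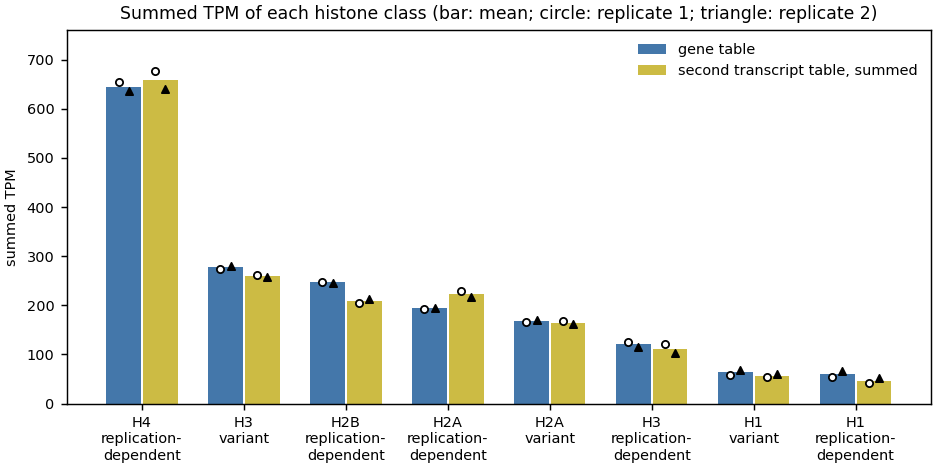
Summed TPM (y axis, linear) of each histone class, as the mean of the 2 libraries (bars) with replicate 1 as a circle and replicate 2 as a triangle, by the gene table and by the second transcript table summed per gene. H4 leads by both, at 645 and 659 TPM, while replication-dependent H1 and H2B are lower and H2A higher by the second table.

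The second transcript table gave 1250 ± 34.3 TPM for the replication-dependent genes and 481 ± 2.13 TPM for the variants (SD, n = 2), and it detected 63 of 76 genes. Among the classes, replication-dependent H1 was lower by the second table, at 46.8 ± 6.29 TPM, as was H2B at 209 ± 5.22 TPM, and replication-dependent H2A was higher at 223 ± 7.96 TPM. The H2A genes of the Hist1 cluster had 54.9 ± 8.44 TPM by the first and 81.8 ± 20.5 TPM by the second. The H3.3 share was 69.9% ± 2.14 by it and the H2A.Z share 22.6% ± 0.912. H4 summed to 659 ± 24.95 TPM by the second table from 3659 estimated counts on average, against 645 TPM from 4892 expected counts by the first. The effective lengths that counts are divided by also differ: the gene table takes 100 bases off each histone transcript, and the second table takes 248 off long transcripts.

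Among genes with annotated lengths under 500 bases and detected by both quantifiers, the 20 histone genes had a median log2 ratio of second over first of -0.69 in counts and -0.19 in TPM. The 79 other protein-coding genes of that length had -0.03 in counts and 0.19 in TPM. A 2-fold or larger difference in TPM was seen in 20% of those histone genes and 6.33% of the others. At 2000 bases or more, the 7 histone genes had a median log2 TPM ratio of -0.20 and 8271 other genes -0.17. These are descriptions of how the tables differ and no test was run on them.

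In all, 7 genes differed 4-fold or more between the quantifiers, after 0.1 TPM was added to each mean, with at least 1 TPM by either. Hist1h2ao, Hist1h4n and Hist1h2ag were lower by the second, at 0, 2.04 and 0 TPM against 14.4, 12.1 and 2.03 TPM. Hist1h2ai, Hist2h2aa1, Hist1h3b and Hist1h2ap were higher by the second, at 46.3, 45.1, 22.4 and 7.61 TPM against 9.02, 3.44, 1.97 and 0 TPM. Under 50% of the windows were unique in each of the 7. Over all 76 genes, 12 had only windows of their own, 64 shared at least 1 window with another gene, and 25 replication-dependent genes had under 50% unique windows.

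**Figure D3:**
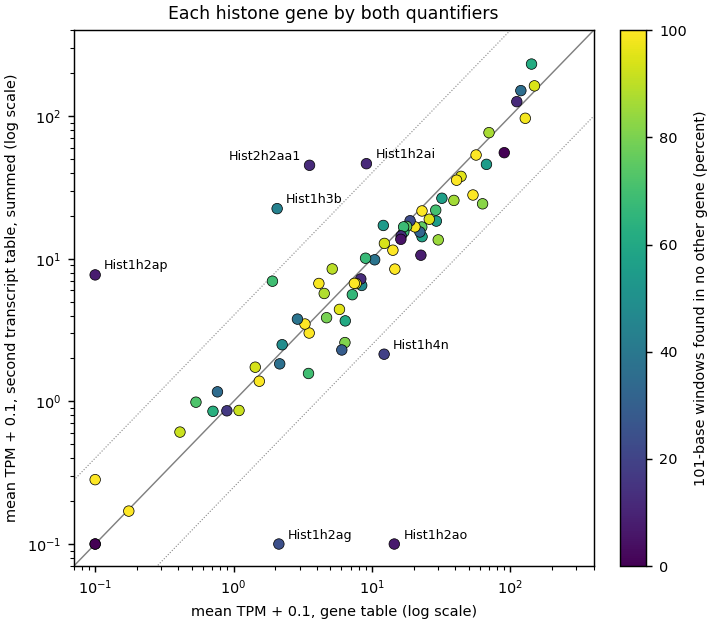
Mean TPM + 0.1 of each of the 76 histone genes by the gene table (x axis) and by the second transcript table (y axis), both on log scales, coloured by the percent of 101-base windows found in no other gene, with the line of equality and dotted lines at 4-fold. The 7 named genes lie beyond the dotted lines and have dark colours, that is few unique windows.

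Uniqueness also went with the width of the deposited bounds. In the 44 genes detected by both quantifiers with 50% or more unique windows, the upper bound was 1.36 times the lower in replicate 1 and 1.30 times in replicate 2 at the median. In the 16 genes under 50%, the ratio was 3.72 and 2.51. The 2 sets of genes were not matched in counts, and what set the widths was not tested. The median absolute log2 difference between the quantifiers was nearly the same, 0.35 and 0.36. Processed copies elsewhere in the genome took reads as well: H3f3c, a pseudogene related to H3f3a, had 7.91 and 9.10 TPM by the first quantifier and 1.09 TPM on average by the second, and Gm8203, which holds 12.9% of the windows of H2afz, had 58.3 and 42.7 TPM by the first and 28.8 TPM on average by the second. The level of H2afz was 76.5 TPM on average by the second.

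In the comparison of replicate 2 with replicate 1 by edgeR, 16123 genes were tested, of which 126 (0.781%) passed an adjusted p under 0.05. Of the 59 histone genes tested, 1 passed. Hist1h2ai had 74.5 expected counts in replicate 1 and 0 in replicate 2, a log2 ratio of -5.43 that depends on the prior count (edgeR adjusted p = 7.73e-05). The deposited bounds of its TPM overlapped between the libraries, at 4.16 to 22.1 TPM in replicate 1 and up to 4.25 TPM in replicate 2, and the deposited posterior means were 12.9 and 1.52 TPM. By the second quantifier Hist1h2ai had 61.0 and 31.6 TPM and did not pass, with an adjusted p of 1.00 and a log2 ratio of -0.76. Across the 6 settings its adjusted p ran from 5.02e-13 to 1.00. Only 11.6% of its windows are unique, and 81.2% are in Hist1h2ad.

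With Hist1h2ai, 6 of the 59 histone genes had an unadjusted p under 0.05, where 4.54% of all genes tested did, and 5 of them did not pass the correction by edgeR. Hist1h4m (609 and 457 counts, log2 ratio -0.73), Hist1h4n (26 and 117 counts, 1.79) and Hist1h2ah (14 and 77 counts, 2.01) share most of their windows with other histone genes. H1f0 (998 and 1686 counts, 0.44) and Hist1h1e (502 and 911 counts, 0.54) mostly do not. In all, 54 of the 59 genes were within 2-fold between the libraries, or 91.5%, against 93.2% of all genes tested, and 6.83% of all genes were 2-fold or more apart. The ratio was above 0 in 42 of the 59, with a median log2 ratio of 0.22 over the histone genes, where the median over all genes was -0.00126. On simulated libraries the test recovered 6% of 2-fold and 64.0% of 4-fold changes, so smaller differences would mostly not be seen.

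**Figure D4:**
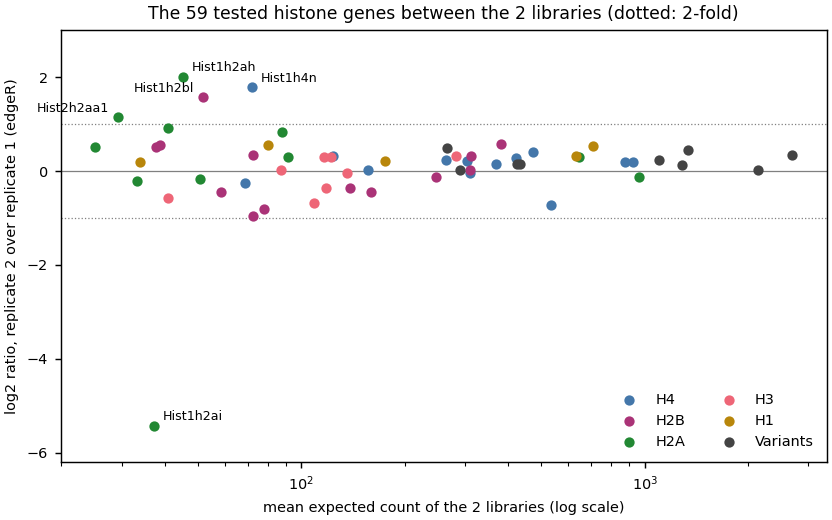
Log2 ratio of replicate 2 over replicate 1 from edgeR (y axis) against the mean expected count (x axis, log scale) of the 59 tested histone genes, coloured by class, with dotted lines at 2-fold. Hist1h2ai stands alone at -5.43, and the genes with 1000 counts or more stay within 2-fold.

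The tissue held the RNA of hippocampal cells in both libraries, with mean levels of 91.5 (Neurod6) to 1496 TPM (Camk2a) for excitatory neurons, 32.9 (C1ql2) to 64.5 TPM (C1ql3) for dentate granule cells and 52.0 (Fibcd1) to 96.3 TPM (Mpped1) for CA1. Other lists ran from Pvalb to Gad1 (30.6 to 186 TPM, interneurons), Aldh1l1 to Slc1a2 (21.5 to 827 TPM, astrocytes) and Mog to Mbp (26.1 to 845 TPM, oligodendrocytes). The lowest ran from Cspg4 to Pdgfra (7.86 to 17.00 TPM, oligodendrocyte precursors), Cx3cr1 to Csf1r (15.2 to 31.9 TPM, microglia), Pecam1 to Cldn5 (7.97 to 19.7 TPM, endothelium) and Eomes to Neurod1 (0.135 to 11.9 TPM, neurogenic lineage). No gene of the neuronal, astrocyte, oligodendrocyte, microglial, endothelial and neurogenic marker lists passed the edgeR library test, and 1 gene, Mog, had an unadjusted p under 0.05. Choroid plexus markers were the exception: 8 of 8 passed (Ttr, Folr1, Clic6, Kl, Aqp1, Slc4a5, Sostdc1 and Kcnj13), all higher in replicate 2. Their summed levels were 17.1 TPM in replicate 1 and 1788 TPM in replicate 2. The list was chosen with earlier results of these data known, so the count of 8 is a description and no independent test. Whether the choroid plexus difference moved any histone gene was not tested. The sum of histone TPM differed by less than 1% between the libraries, while the histone share of annotated counts was 0.0768% in replicate 1 and 0.0856% in replicate 2.

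Genes of S phase and dividing cells had unlike levels. Of 22 genes of S phase and division, 12 were detected in both libraries, from Pcna, the replication clamp, at 25.5 ± 1.20 TPM (SD, n = 2) down to Ccnb1, the mitotic cyclin, at 0.175 ± 0.0495 TPM. Mki67, present in cycling cells, had 0.300 and 0.560 TPM, and Rrm2, the S phase subunit of ribonucleotide reductase, had 0.620 and 0.630 TPM. Other genes of the list were higher. On average Mcm3 was the lowest of the listed Mcm genes, at 1.79 and 1.87 TPM, and Mcm7 the highest, at 8.79 and 5.84 TPM. Rrm1 had 5.89 and 6.22 TPM and Ccne1 6.42 and 6.36 TPM. The median of this list was 1.66 TPM, next to a median of 9.69 TPM over the 76 histone genes. By edgeR, 0 of the 15 genes tested in this list passed the library test, and also 0 at an unadjusted p under 0.05.

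Of 21 listed genes of histone 3′ processing and histone gene transcription found in the table, 19 were detected. Slbp, which encodes the protein that binds the stem-loop, had 8.92 and 10.9 TPM, and Npat, a coactivator of histone gene transcription, had 10.4 and 8.24 TPM. Srrt, a cap-binding partner in RNA processing, had the highest level at 137 and 86.3 TPM. The 2 not detected both belong to histone 3′ processing: Rnu7, the U7 small nuclear RNA, was listed at 0, and Zfp473 had 0.150 and 0.220 TPM. The 0 of Rnu7 does not show its absence, since whether so small an RNA could be counted here was not tested. Of 29 histone chaperone and exchange genes, 27 were detected: Hira, which deposits H3.3, had 45.3 and 37.1 TPM, and Nap1l5 was highest at 150 and 166 TPM. The replication-coupled assembly factor had unlike subunits, with Chaf1b lowest of the list at 0.0900 and 0.390 TPM, Chaf1a at 1.74 and 1.19 TPM and Rbbp4, which also serves other complexes, at 57.5 and 51.0 TPM. Asf1b, a chaperone linked to replication, had 0.380 and 0.310 TPM. Of 14 other listed histone variants in the table, 3 were detected by the first quantifier. These were H2afj at 21.4 ± 0.212 TPM, H3f3c at 8.51 ± 0.841 TPM and Cenpa, the centromeric H3, at 2.06 ± 0.707 TPM. The lowest, such as H2afb2, were listed at 0. H3f3c is annotated as a processed pseudogene, and by the second quantifier it had 2.91e-06 TPM in replicate 1 and 2.17 TPM in replicate 2. In these 3 lists 0 genes passed the edgeR library test, with 2, 2 and 0 at an unadjusted p under 0.05.

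Promoters, from 250 bases before to 50 bases after the start, were matched in RefSeq (GRCm38.p6) for 70 of the 76 genes, 62 of them replication-dependent. The letters searched were CCAAT, the octamer ATTTGCAT and AAACACA on both strands, and TATAAA on the sense strand. A gene was counted if any of its promoters held the letters. CCAAT was found for 85.5% of the replication-dependent genes against 41.1% of 27025 genes with a promoter. It was found for each of the H1, H2A, H2B and H3 genes matched, but for 3 of 12 H4 genes. TATAAA was in 48.4% against 9.77%. The octamer was found for 7 of 18 H2A and 7 of 16 H2B genes and for none of H1, H3 or H4 (1.97% of all genes). These are counts of genes and not of separate sites. Some H2A and H2B genes start close together on opposite strands, so their promoter windows overlap. The same octamer and CCAAT sites were counted for both Hist1h2ae and Hist1h2bg, for example. AAACACA, known from H1 promoters, was found for 5 of 6 H1 genes (8.22% of all genes). A match describes letters in the window and no binding.

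Promoters of 3 genes are printed to show these arrangements, with matches in capitals and the strand of the gene read 5′ to 3′. The window of Hist1h2bg spans the whole stretch between it and its divergent neighbour Hist1h2ae.
Hist1h2bg (chr13:23571150-23571449, plus strand): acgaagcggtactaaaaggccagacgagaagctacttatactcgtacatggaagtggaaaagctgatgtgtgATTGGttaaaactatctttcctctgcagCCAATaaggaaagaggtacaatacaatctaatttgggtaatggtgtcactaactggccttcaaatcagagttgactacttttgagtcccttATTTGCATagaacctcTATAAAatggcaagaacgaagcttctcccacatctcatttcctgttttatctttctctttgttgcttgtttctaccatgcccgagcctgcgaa
Hist1h1c (chr13:23738557-23738856, plus strand): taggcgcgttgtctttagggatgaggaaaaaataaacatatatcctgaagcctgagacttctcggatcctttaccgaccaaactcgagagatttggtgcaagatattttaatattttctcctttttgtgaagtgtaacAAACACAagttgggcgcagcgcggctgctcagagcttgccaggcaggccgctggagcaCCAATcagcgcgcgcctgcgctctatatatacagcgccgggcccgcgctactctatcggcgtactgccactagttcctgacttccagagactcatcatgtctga
H3f3b (chr11:116024455-116024754, minus strand): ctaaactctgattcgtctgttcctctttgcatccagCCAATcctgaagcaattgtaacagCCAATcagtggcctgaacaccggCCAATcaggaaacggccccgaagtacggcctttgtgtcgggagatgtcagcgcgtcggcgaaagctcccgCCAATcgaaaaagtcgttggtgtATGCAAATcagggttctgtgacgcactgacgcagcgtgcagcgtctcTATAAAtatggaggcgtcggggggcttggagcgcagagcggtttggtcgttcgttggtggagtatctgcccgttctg
Hist1h2bg holds CCAAT on both strands, the octamer and TATAAA. Hist1h1c holds AAACACA and CCAAT. H3f3b, a variant gene, holds TATAAA, the octamer on the other strand, and CCAAT, and it was the only 1 of 8 variant promoters with the octamer or with TATAAA.

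Many H2A and H2B genes start head to head, so that 1 stretch of DNA is promoter to both. There were 13 such pairs with starts within 1000 bases, 12 of H2A with H2B and 1 of H2B with H3. Neighbours of a pair often had unequal levels. Hist1h2ae and Hist1h2bg start 176 bases apart, and Hist1h2ae had 3.80 and 2.96 TPM where Hist1h2bg had 31.6 and 26.6 TPM, 8.61-fold more on average. Hist1h2ac, with 0.700 and 1.29 TPM, starts 251 bases from Hist1h2bc, with 16.4 and 19.0 TPM, a 17.8-fold difference. The second quantifier gave 0.764 and 16.8 TPM on the same annotation. The difference was smaller in expected counts, at 24 and 58 for Hist1h2ac and 245 and 381 for Hist1h2bc. Their longest annotated transcripts have 2482 and 1156 bases, and TPM divides by length.

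Of the 12 H2A and H2B pairs, the H2B gene had the higher TPM in both libraries by both quantifiers in 5. The H2A gene had it in 2 (Hist2h2ac over Hist2h2be and Hist1h2ak over Hist1h2bn), and the rest depended on library or quantifier or were at 0. Among the 5, the H2A genes Hist1h2ap, Hist1h2ag and Hist1h2ad have 7.85%, 23.9% and 36.4% unique windows. Hist1h2br, the partner of Hist1h2ap, has 13.6%. Hist1h2ap was at 0 by the first quantifier, where Hist1h2ao, which holds 92.1% of its windows, had 14.4 TPM. The order in these pairs therefore depends on how shared reads were divided. In expected counts Hist2h2be was above Hist2h2ac, at 142 and 136 against 54 and 122. Their longest annotated transcripts have 2620 and 520 bases. The testis pair Hist1h2ba and Hist1h2aa was listed at 0 for both genes by the first quantifier. In the H2B and H3 pair, Hist1h2bh had 0.310 ± 0.0141 TPM and Hist1h3f 7.12 ± 0.601 TPM (SD, n = 2).

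**Figure D5:**
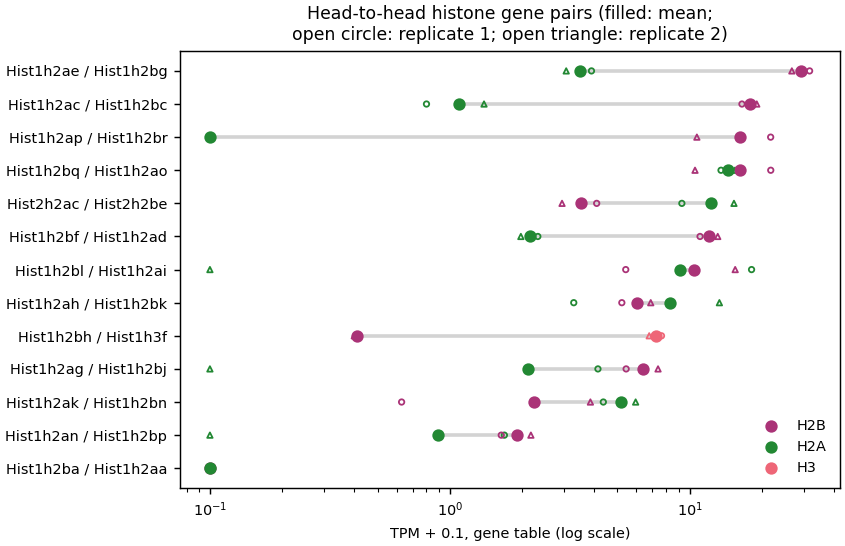
TPM + 0.1 (x axis, log scale) of both genes of each of the 13 head-to-head pairs (y axis), coloured by class, with the mean as a filled dot, replicate 1 as an open circle and replicate 2 as an open triangle. The pair of Hist1h2ac and Hist1h2bc and that of Hist1h2ae and Hist1h2bg are widely apart in both libraries, while Hist1h2bq and Hist1h2ao overlap.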

How the data were processed

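The files are tables of 1 library each, on mm10 with GENCODE M21 per the read-me files deposited with them. The gene table and a transcript table came from a transcriptome alignment and use RSEM's column names, and the second transcript table came from the read files and uses kallisto's, per the file headers (versions not given in the sources used here). Expected counts, as deposited, are reads with shared ones divided among features. The deposited TPM are abundances per effective length with 1 common sum per library. The deposited percent values are a transcript's share of its gene. The second table was summed per gene. Depth was 23458117 expected counts for replicate 1 and 29584307 for replicate 2. Wilson intervals (95%) and the floor of 3 counts cover counting error only.

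Levels are mean and SD over the 2 libraries. The library test was run in edgeR 4.0.16 (R 4.3.3), with expected counts rounded first, CPM of 1 or more in at least 1 library, TMM scaling, an intercept alone, the trended dispersion and Benjamini-Hochberg adjustment; it has 1 residual degree of freedom and compares these libraries, not conditions. An edgeR quasi-likelihood comparison of groups was not possible with 1 group. It was tested on simulated data with 200 changed genes in 5 runs. DESeq2 1.42.0 gave alternative size factors. Sequences were cut into 101-base windows over all annotated transcripts. Python 3.11.15 with pandas 2.3.3 was used.

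The histone genes and the lists were chosen with earlier results of these data known. The text names each variant, each replication-dependent gene with a mean of 1 TPM or more, the highest and lowest of each class, those past the library test, and those 4-fold or more apart between the quantifiers; of each list, the highest, the lowest and any past the test. Other list genes (Slbp, Npat, Zfp473, Mki67, Rrm2, Mcm3, Mcm7, Rrm1, Ccne1, Hira, Chaf1a, Rbbp4, Asf1b) were chosen after their values were seen. Of 76 genes, 70 matched a RefSeq promoter. No protein sequence was used here.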

Additional observations from a re-analysis of the deposited data

How the results depend on the processing

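No paired analysis was possible because the samples form 1 group. The number of detected genes stayed between 57 (2 TPM or more) and 65 (0.5 TPM or more), and leaving out a replicate gave 64 and 65. The variant share of histone TPM was 28.7%; it became 27.8% by the second quantifier, 31.5% by expected counts per annotated kb and 24.1% with protein-coding transcripts alone, and it ran from 28.2% to 29.2% when 1 replicate was left out. The H3.3 share of H3 became 72.0% by counts per kb and 62.7% with protein-coding transcripts. The H2A.Z share of H2A became 24.4% by the posterior mean TPM, 24.3% by counts per kb and 24.2% with protein-coding transcripts. The Hist1 share became 79.0% by the second quantifier. The setting with protein-coding transcripts was chosen after the data were seen. The neighbours separated stayed at 0 when a 1.5-fold difference in both libraries replaced the bounds. With 1 common dispersion, 341 genes and 3 histone genes passed the library test (Hist1h2ai, with Hist1h2ah and Hist1h4n higher in replicate 2), and by the second quantifier 109 genes and 0 histone genes did (edgeR, 3 histone genes at an unadjusted p under 0.05). Spike-in scaling moved the median log2 ratio of all genes from -0.00126 to -0.23 and of the histone genes from 0.22 to -0.01. Of 65 genes with a mean of 1 TPM or more or a variant, 23 moved by over 1.5 times by the second quantifier, 2 by the posterior mean and 0 by counts per kb.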
